A study of Mus musculus with 24 samples.

Results

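The 36 genes described here encode proteins that carry a cell through G2 and mitosis, and each was found by its symbol among the 38019 genes tested in CT26.WT tumours. They are taken by name for their known roles, and the selection rule uses no measured value, although it was made with earlier results of these data known. All 36 were abundant enough to measure in every library, with between 699 counts (Cdc25c) and 29361 counts (Top2a) per library.

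CT26.WT cells derive from a colon carcinoma of a Balb/c mouse, and here they grew as grafts in male mice of 2 hosts. The labels give the genotype of every sample as wild-type, without saying whether this means the cells or the mice. Balb/c mice are immunocompetent and share the strain of the line, while NSG mice lack functional T, B and NK cells but keep macrophages and neutrophils. The groups were Balb/c hosts on a restricted diet with 0.172% methionine (6 tumours), Balb/c hosts on a high diet with 0.86% methionine (4 tumours), NSG hosts on 0.172% (6 tumours) and NSG hosts on 0.86% (6 tumours), all fed for 3 to 4 weeks. Balb/c hosts on 0.86% have 6 libraries, of which 2 near-identical pairs were each averaged and counted as a single tumour. The animals' ages are not in the labels, and every tumour comes from the same cell line. The comparison asks how methionine restriction acts on tumours in hosts with and without functional T, B and NK cells. The hosts also differ in strain, so the part of strain and that of these cells cannot be told apart.

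Entry into mitosis is driven by the kinase Cdk1 with its cyclins, and Plk1 and the Aurora kinases reinforce it. The spindle checkpoint then holds the anaphase-promoting complex inactive until every chromosome is attached to the spindle, after which Cdc20 activates that complex and sister chromatids separate. Most of these genes are transcribed in G2 and M, when the MuvB complex works with B-Myb (Mybl2) and FoxM1 on promoters that carry a CHR element and CCAAT boxes. Their RNA is widely used as a marker of proliferating cells in tumours. In bulk tumours fewer cycling cells and less of these RNAs per cell cannot be told apart.

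Libraries held 31339425 to 57162217 assigned counts, and even the lowest member count of 699 leaves little room for counting error. The labelled origin was only partly visible in 8 colon epithelial markers: Krt20 had 1128 to 32790 normalised counts per tumour, whereas Vil1 had at most 5.52 and Epcam at most 77.0. Among the markers of host cells, Cd3e, part of the T cell receptor complex, was at 0 in 11 of 12 NSG tumours, and the NK receptor gene Ncr1 was at 0 in all 12. Not all markers were absent there. At 0 in at least 6 NSG tumours were 4 of 10 T cell, 5 of 7 cytotoxic and NK and 2 of 5 B cell markers. In NSG tumours of both diets Klrk1 had 7.41 to 39.5 normalised counts and Cd79a 24.6 to 187. Cd4 had 15.7 to 93.9 in NSG and 17.3 to 69.9 in Balb/c tumours.

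Compared per kilobase of annotated exon, the level over all tumours was highest for Cdc20, which activates the anaphase-promoting complex, at 2683 normalised counts per kilobase. Ube2c, the ubiquitin-conjugating enzyme of that complex, followed at 2351, and Top2a, the topoisomerase that untangles sister chromatids, at 1844. Cdc25c, a phosphatase that activates Cdk1, was lowest at 239 per kilobase. The order of the genes depends on the length used. Annotated exons span 9013 bases in Top2a and 4919 in Cdc25c, but their longest transcripts have 5221 and 2634. In Cdc20 the values are close, 1868 and 1793 bases. Exons of 11 members overlap another annotated gene, 10 of them on the opposite strand, so that their counts are uncertain. These are Plk1, Ccna2, Cdc20, Cdc25c, Kif20a, Kif4, Top2a, Prc1, Nek2, Ube2c and Nusap1, with the greatest share in Kif20a (29.3% of exon bases, shared with Cdc23) and Ube2c (22.8%, shared with Tnnc2).

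RefSeq on GRCm38.p6 held promoter windows, 250 bases before to 50 after the start site, for 30 of the 36 members (33 windows); Aurkb, Ccna2, Cdc25c, Dlgap5, Kif20a and Tpx2 had none in the table. A CHR, searched as TTTGAA or TTTAAA on both strands, was present in 84.8% of the members' windows, against 27.6% of all 32851 windows. A CCAAT box, searched as CCAAT on both strands, was present in 78.8% of the members' windows and 37.4% of all windows. Both motifs were found in 72.7% of the members' windows and 10.7% of all windows, whereas an E2F-like motif (TTTCCCGC, TTTCGCGC, TTTGCCGC or TTTGGCGC, both strands) was found in 3.03% of the members' windows and 2.26% of all windows. The members were selected as G2 and mitosis genes, so these shares describe the selection.

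The windows of 5 members are shown because the comparisons below turn on them: the called genes Bub1b and Ect2, Ccnb1 as the member of next smallest p, Cdc20 as the checkpoint's target, and Ndc80 as the member whose difference had the opposite sign. Each is written 5′ to 3′ on the strand of the gene, and capitals mark matches to a CHR or a CCAAT box on either strand. The windows lie at chr2:118597961-118598260 (plus strand) for Bub1b, chr3:27153829-27154128 (minus) for Ect2, chr13:100786437-100786736 (minus) for Ccnb1, chr4:118437294-118437593 (minus) for Cdc20 and chr17:71526808-71527107 (minus) for Ndc80.
Bub1b: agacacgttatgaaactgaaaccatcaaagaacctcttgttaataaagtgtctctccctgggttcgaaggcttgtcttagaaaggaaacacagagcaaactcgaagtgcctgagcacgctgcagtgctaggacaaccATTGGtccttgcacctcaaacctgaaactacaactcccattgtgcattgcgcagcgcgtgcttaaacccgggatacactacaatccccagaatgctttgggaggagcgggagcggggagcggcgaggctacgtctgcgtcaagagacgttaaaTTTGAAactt
Ect2: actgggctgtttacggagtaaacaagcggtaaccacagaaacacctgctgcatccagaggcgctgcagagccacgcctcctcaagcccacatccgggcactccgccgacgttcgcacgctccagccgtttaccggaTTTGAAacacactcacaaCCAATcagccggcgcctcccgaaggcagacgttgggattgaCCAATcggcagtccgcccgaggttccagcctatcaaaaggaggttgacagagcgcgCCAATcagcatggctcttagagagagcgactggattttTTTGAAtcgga
Ccnb1: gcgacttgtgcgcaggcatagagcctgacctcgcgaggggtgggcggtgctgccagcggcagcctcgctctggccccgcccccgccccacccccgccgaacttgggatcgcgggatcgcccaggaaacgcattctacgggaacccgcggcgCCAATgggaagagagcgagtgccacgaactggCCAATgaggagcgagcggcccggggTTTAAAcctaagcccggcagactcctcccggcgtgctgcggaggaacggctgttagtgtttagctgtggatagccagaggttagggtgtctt
Cdc20: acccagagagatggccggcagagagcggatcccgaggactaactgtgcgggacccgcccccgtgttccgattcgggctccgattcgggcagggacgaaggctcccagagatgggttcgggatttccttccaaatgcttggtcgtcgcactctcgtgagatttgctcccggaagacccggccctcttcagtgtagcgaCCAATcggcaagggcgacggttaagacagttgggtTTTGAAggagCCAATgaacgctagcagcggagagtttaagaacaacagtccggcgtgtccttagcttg
Ndc80: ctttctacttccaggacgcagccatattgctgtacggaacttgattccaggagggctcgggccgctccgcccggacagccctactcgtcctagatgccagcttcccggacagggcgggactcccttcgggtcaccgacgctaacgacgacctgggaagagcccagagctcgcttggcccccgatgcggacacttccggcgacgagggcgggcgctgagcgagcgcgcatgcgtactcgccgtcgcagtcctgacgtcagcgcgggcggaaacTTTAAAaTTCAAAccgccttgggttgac
In the windows of Ect2, Ccnb1 and Cdc20 a CHR stands with 2 or 3 CCAAT boxes, and in that of Bub1b with 1 on the opposite strand. The Ndc80 window holds 2 CHR matches and no CCAAT match, which says only that these letters are not in this window.

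**Figure D1:**
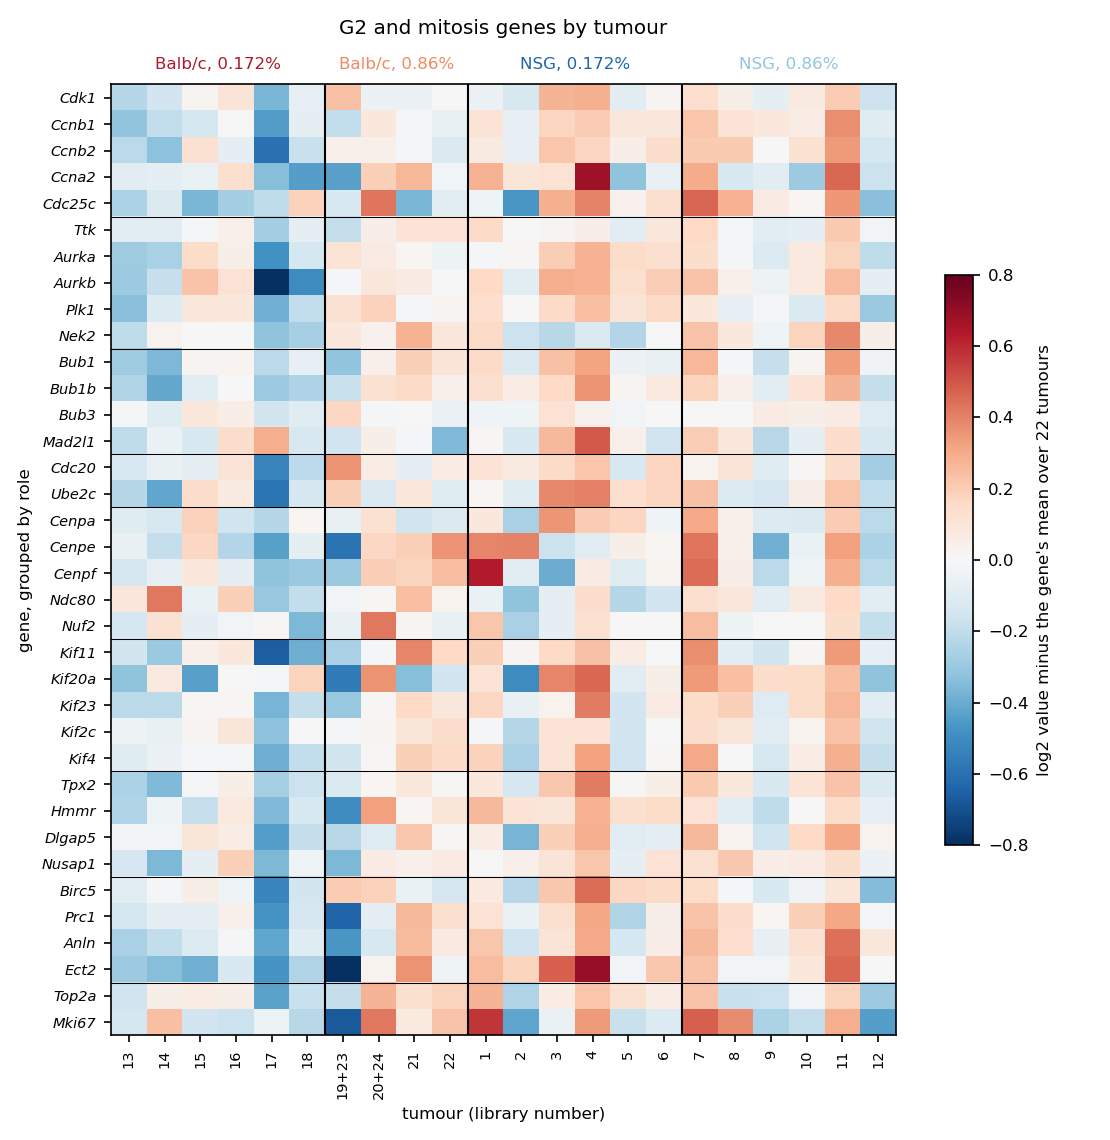
Log2 value of each of the 36 genes (rows, by role) in each of the 22 tumours (columns, by group), as the difference from the gene's mean over 22 tumours; red is higher and blue lower. Tumour 17 and the averaged tumour of libraries 19 and 23 are blue for most genes, and tumours 4, 7 and 11 of NSG hosts are red for most genes.

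In Balb/c tumours on 0.172% methionine 2 of the 36 members fell relative to NSG tumours on that diet, Bub1b and Ect2, and none rose. No other comparison had a called member. This is 5.56% of the members, beside 2.09% of all genes tested and 0.652% called lower, or 1.17% called lower among the 7445 genes with a mean log2 value of at least 10. All genes called numbered 548 higher and 248 lower, and 461 higher and 365 lower when libraries were centred on their medians. The median difference over the members was -0.23 on the log2 scale, against 0.00 over all genes tested and -0.04 over those 7445 genes. The difference was below 0 for 35 of the 36 members (97.2%), against 46.6% of all genes tested and 60.1% of the 7445 genes. A negative difference with an unadjusted p under 0.05 was found in 17 members (47.2%), against 6.5% of all genes tested and 13.8% of the 7445 genes. Members varied together from tumour to tumour, as described below. Such counts, here and in the other comparisons, are therefore not counts of independent observations.

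Bub1b (BubR1; chr2:118598211-118641591, plus strand) is the spindle checkpoint protein that binds and inhibits Cdc20. Its lowest, median and highest normalised counts were 2874, 3240 and 3831 in Balb/c tumours on 0.172%, against 3887, 4141 and 4949 in NSG tumours on 0.172%. The groups did not overlap: the highest Balb/c tumour, tumour 16, lay below the lowest NSG tumour, tumour 5. Bub1b averaged 3324 ± 343 in Balb/c and 4234 ± 380 in NSG tumours (SD, n = 6 each). The log2 difference was -0.35 ± 0.09 (SE), a level 0.786 times that in NSG tumours (limma, Benjamini-Hochberg adjusted p = 0.0383).

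Ect2 (chr3:27097222-27153878, minus strand) encodes the exchange factor that activates RhoA at the cell equator for cytokinesis. Its lowest, median and highest normalised counts were 2527, 2816 and 3233 in Balb/c tumours on 0.172%, against 3458, 4124 and 5717 in NSG tumours on 0.172%. These groups did not overlap either, and NSG tumour 4 stood highest. Ect2 averaged 2841 ± 243 in Balb/c and 4384 ± 801 in NSG tumours (SD, n = 6 each). The log2 difference was -0.61 ± 0.16 (SE), the greatest in size among the members (limma adjusted p = 0.0382). Hmmr, a spindle pole protein that binds hyaluronan, was the remaining member without overlap, with 2291, 2633 and 3097 in Balb/c tumours, against 3130, 3227 and 3545 in NSG tumours. Its difference of -0.31 ± 0.10 did not pass the test (limma adjusted p = 0.139). No overlap with lower Balb/c values was found in 3 of the 36 members, and in 0.731% of all genes tested or 1.77% of the 7445 genes.

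Both calls were close to the threshold. Leaving out tumour 1, 3, 4 or 6 of the NSG hosts, or tumour 13, 14, 17 or 18 of the Balb/c hosts, left 0 members called by limma, with 11 to 17 at an unadjusted p under 0.05. Without NSG tumour 2, Bub1b and Ccnb1 were called. Without tumour 16, 3 were called (Bub1b, Ccnb1 and Ect2); without tumour 15, 4 (Aurka, Aurkb, Bub1b and Ccnb2); and when libraries 19 and 23 were dropped, 4 (Bub1b, Ccnb1, Ect2 and Hmmr). With the doubted tumours 17 and 19 and 23 both left out, Bub1b and Ect2 were called and the median difference was -0.17.

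The cyclin and Cdk1 genes had differences from -0.31 to -0.17 on the restricted diet, with none called. Ccnb1, the cyclin B1 that activates Cdk1 for mitotic entry (chr13:100778650-100786570, minus strand), had 3817, 4637 and 5225 normalised counts at its lowest, median and highest in Balb/c tumours, against 4963, 5599 and 5989 in NSG tumours. Tumour 16 of the Balb/c hosts exceeded only the lowest NSG tumour, tumour 2. The difference of -0.29 ± 0.09 missed the threshold (limma adjusted p = 0.074). Cdk1 itself had 5136, 6149 and 7171 in Balb/c tumours and 6076, 6605 and 8099 in NSG tumours, with wide overlap, and its difference was -0.17 ± 0.09 (limma adjusted p = 0.461).

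All 5 mitotic kinase genes had negative differences, from -0.42 to -0.03. Plk1, which acts on centrosomes, kinetochores and the cleavage furrow, had 1799, 2129 and 2521 normalised counts in Balb/c tumours on 0.172%, against 2365, 2605 and 2809 in NSG tumours, and Aurka, the kinase of spindle poles, had 1636, 1990 and 2544 in Balb/c tumours, against 2266, 2526 and 2783 in NSG tumours. In both genes the upper Balb/c tumours lay within the NSG range. The differences were -0.27 ± 0.09 for Plk1 (limma adjusted p = 0.13) and -0.28 ± 0.09 for Aurka (limma adjusted p = 0.132). Aurkb, of the chromosomal passenger complex, ranged from 1913 in tumour 17 to 4393 in tumour 15 among the Balb/c tumours, against 3505 to 4579 in NSG tumours. Nek2, a kinase that separates centrosomes, had a difference of -0.03 ± 0.09.

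The remaining checkpoint genes had differences of -0.23 ± 0.11 for the kinase Bub1, -0.10 ± 0.11 for Mad2l1 and -0.04 ± 0.06 for Bub3. Cdc20 had 3434, 4626 and 5323 normalised counts in Balb/c tumours on 0.172% and 4537, 5433 and 5791 in NSG tumours, and Balb/c tumour 17 was below all the others. Its difference was -0.25 ± 0.10 and that of Ube2c -0.36 ± 0.12 (limma adjusted p = 0.231 and 0.126). Neither passed the test.

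Ndc80, the microtubule-binding subunit of the outer kinetochore, was the only member with a positive difference between hosts on this diet. It had 2060, 2580 and 3418 normalised counts in Balb/c tumours, against 2023, 2353 and 2802 in NSG tumours, ranges that overlap. The difference was 0.14 ± 0.10 (limma adjusted p = 0.627). The other 4 centromere and kinetochore genes had differences from -0.23 to -0.08. Among them Cenpf, a large kinetochore and nuclear matrix protein, had 3885, 4555 and 5203 in Balb/c tumours and 3717, 4787 and 7594 in NSG tumours, where tumour 1 was highest (difference -0.16 ± 0.14, limma adjusted p = 0.66).

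Kinesins and spindle assembly factors had negative differences in all 9 genes. Kif11, the motor that pushes spindle poles apart, had 3042, 4137 and 5127 normalised counts in Balb/c tumours and 4828, 5216 and 5677 in NSG tumours; only tumours 15 and 16 of the Balb/c hosts reached the NSG range. Its difference was -0.34 ± 0.12 (limma adjusted p = 0.177). Tpx2, which activates Aurora A on spindle microtubules, had 5277, 5802 and 6951 in Balb/c tumours, against 6150, 7042 and 8905 in NSG tumours, with a difference of -0.27 ± 0.09 (limma adjusted p = 0.134). Kif2c, which depolymerises microtubules, was nearest to 0 at -0.02 ± 0.08.

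Of the cytokinesis genes besides Ect2, Anln, the actin-binding scaffold of the contractile ring, had 10440, 12490 and 13710 normalised counts in Balb/c tumours on 0.172% and 12490, 14660 and 17130 in NSG tumours (difference -0.25 ± 0.11, limma adjusted p = 0.315). Birc5 (survivin) and Prc1, which bundles midzone microtubules, had differences of -0.26 ± 0.11 and -0.20 ± 0.12. Top2a had 12250, 15860 and 17140 in Balb/c tumours, against 13940, 17560 and 19860 in NSG tumours, a difference of -0.18 ± 0.11 (limma adjusted p = 0.499). Mki67, the Ki-67 protein that coats mitotic chromosomes, varied widely within groups. It had 9907, 10450 and 13630 normalised counts in Balb/c tumours and 8647, 10900 and 17200 in NSG tumours, and its difference of -0.10 ± 0.19 turned to 0.01 without tumour 1 (limma adjusted p = 0.879).

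**Figure D2:**
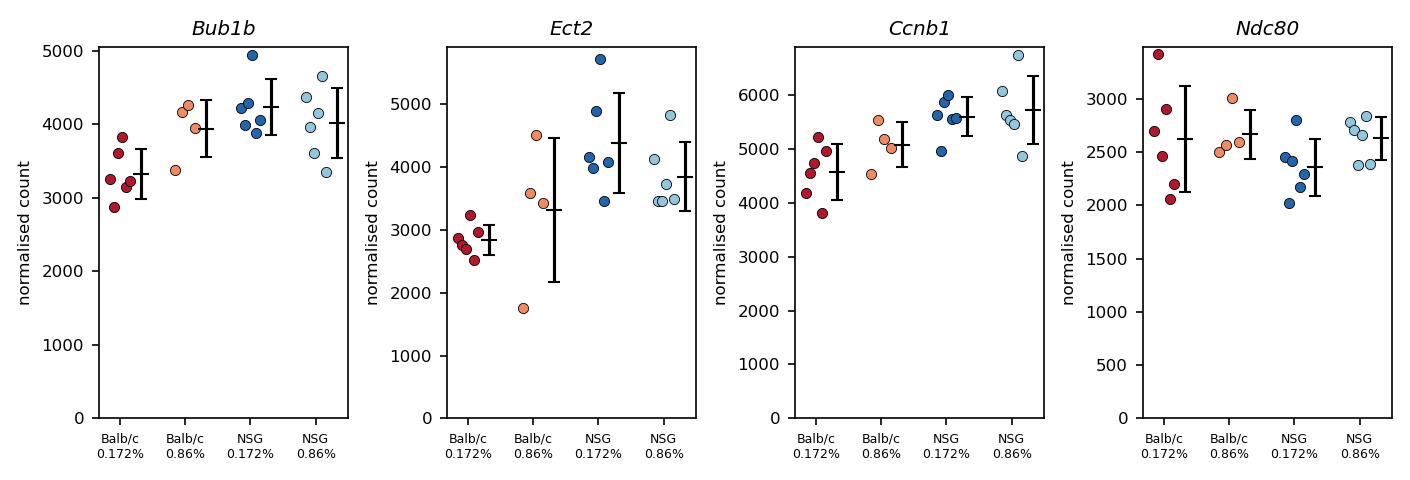
Normalised counts (count divided by the library's size factor) of Bub1b, Ect2, Ccnb1 and Ndc80 in each tumour of the 4 groups; each point is a tumour and the bar its group's mean and SD. Bub1b and Ect2 of the Balb/c tumours on 0.172% lie below those of every NSG tumour on 0.172%, and Ndc80 overlaps in all groups.

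Markers of immune and vascular cells moved with the host. On 0.172% the test called 7 of 7 cytotoxic and NK markers, 9 of 10 T cell markers, 3 of 8 endothelial markers and 1 of 9 macrophage markers higher in Balb/c tumours. The summed normalised counts of the cytotoxic and NK list ranged from 112 to 10299 in Balb/c tumours on 0.172% and from 10.1 to 49.7 in NSG tumours on 0.172%. Those of the T cell list ranged from 74.7 to 1375 in Balb/c and from 17.5 to 105 in NSG tumours, those of the macrophage list from 43572 to 114100 in Balb/c and from 33765 to 83383 in NSG tumours, and those of the endothelial list from 3436 to 6827 in Balb/c and from 2295 to 3942 in NSG tumours. Of the remaining markers only Cdh1 of the colon epithelial list was called, higher by 1.07 (limma adjusted p = 0.0102), and none of the B cell, neutrophil, fibroblast, adipocyte, skeletal muscle and red blood cell lists. The part of these cells in the differences of the mitosis genes was not tested.

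None of the 36 members was called between Balb/c and NSG tumours on 0.86% methionine, where 2.53% of all genes tested were called and 0.484% called lower. None had an unadjusted p under 0.05, against 5.26% of all genes tested and 10.4% of the 7445 genes with a lower value. The groups overlapped in every member, while 1.5% of all genes tested had lower values without overlap. The median difference was -0.02, and 23 members (63.9%) had a negative one, against 49.4% of all genes tested and 59.7% of the 7445 genes. Markers of immune and vascular cells were mostly higher in Balb/c hosts here as well. The test called 7 of 7 cytotoxic and NK and 8 of 10 T cell markers higher. It also called 5 of 8 endothelial, 2 of 9 macrophage and 1 of 6 neutrophil markers higher, and none of 5 B cell markers. Of 6 adipocyte markers 1 was called higher, but the other 5 had negative differences, and the median of that list was -0.89. The cytotoxic and NK sums ranged from 1493 to 5488 in Balb/c tumours on 0.86% and from 8.33 to 26.5 in NSG tumours on 0.86%.

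Bub1b had 3385, 3957, 4171 and 4263 normalised counts in the 4 Balb/c tumours on 0.86%, and 3357, 4059 and 4654 at its lowest, median and highest in NSG tumours on 0.86%. The ranges nearly coincide, and the difference was -0.02 ± 0.10 (limma adjusted p = 0.987). Ect2 had 1754, 3423, 3587 and 4517 in the Balb/c tumours and 3459, 3612 and 4835 in NSG tumours; the low value came from the averaged tumour of libraries 19 and 23. The members of smallest p were Anln at -0.23 ± 0.12, Ccnb1 at -0.17 ± 0.10 and Kif20a, a kinesin of the central spindle, at -0.30 ± 0.18 (limma adjusted p = 0.464, 0.505 and 0.521). The greatest positive difference was 0.14 ± 0.12, in Top2a.

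**Figure D3:**
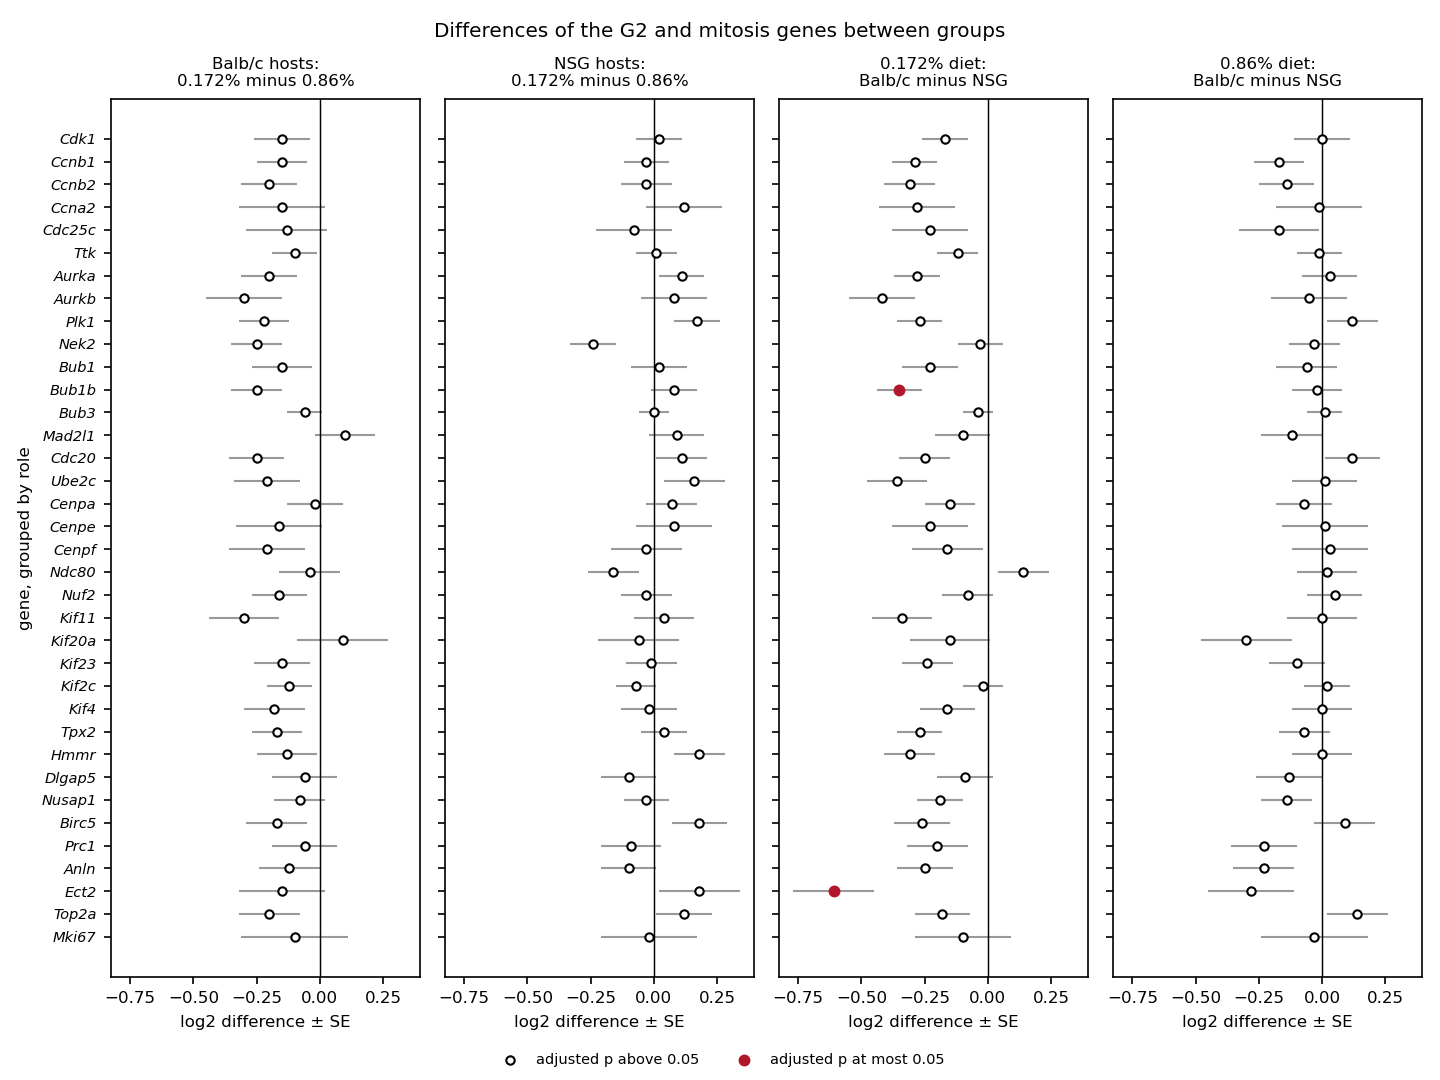
Log2 difference and its standard error for each of the 36 genes in the 4 comparisons: diet in Balb/c hosts, diet in NSG hosts, host on 0.172% and host on 0.86%. Red points mark the 2 genes with an adjusted p at most 0.05, Bub1b and Ect2, both in the host comparison on 0.172%, where 35 of 36 points lie below 0.

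Within Balb/c hosts, restriction left no member past the test. None of the 36 was called between Balb/c tumours on 0.172% and those on 0.86%, where 0.00263% of all genes tested, 1 gene, was called. The median difference was -0.15, against 0.00 over all genes tested and 0.02 over the 7445 genes with a mean of at least 10. It was negative in 34 members (94.4%), against 48.7% of all genes tested and 43.8% of those 7445 genes. An unadjusted p under 0.05 was found for 5 members (13.9%), namely Nek2, Bub1b, Cdc20, Plk1 and Kif11, all negative, against 4.65% of all genes tested and 2.79% of those 7445 genes with a lower value. This comparison shares the 6 restricted Balb/c tumours with the host comparison on 0.172%, so they are not independent.

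Nek2 (chr1:191821444-191833050, plus strand) had the smallest p and no overlap. Its lowest, median and highest normalised counts were 2181, 2544 and 2782 in Balb/c tumours on 0.172%, against 2809, 2895, 2905 and 3325 in the 4 Balb/c tumours on 0.86%. The gap between the groups was narrow, and the difference was -0.25 ± 0.10 (limma adjusted p = 0.503). Groups with lower restricted values and no overlap were found in 1 of 36 members and 0.355% of all genes tested.

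Bub1b had 2874, 3240 and 3831 normalised counts on 0.172%, against 3385, 3957, 4171 and 4263 on 0.86% in Balb/c hosts, where the averaged tumour of libraries 19 and 23 was lowest and within the restricted range. The difference was -0.25 ± 0.10 (limma adjusted p = 0.517). Cdc20 had 3434, 4626 and 5323 on 0.172%, against 4746, 5173, 5186 and 6407 on 0.86%, with tumour 17 lowest and the tumour of libraries 19 and 23 highest. Its difference was -0.25 ± 0.11 (limma adjusted p = 0.566). Plk1 differed by -0.22 ± 0.10 and Kif11 by -0.30 ± 0.14 (limma adjusted p = 0.623 and 0.624).

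Among the other genes that stand for the roles, Cdk1 and Ccnb1 both differed by -0.15 between diets in Balb/c hosts (SE 0.11 and 0.10), and Aurka by -0.20 ± 0.11. Cenpf differed by -0.21 ± 0.15, Tpx2 by -0.17 ± 0.10, Anln by -0.12 ± 0.12 and Top2a by -0.20 ± 0.12. Mki67 had 9907, 10450 and 13630 normalised counts on 0.172% and 7266, 12179, 13538 and 15522 on 0.86%. Its difference of -0.10 ± 0.21 turned to 0.04 without the averaged tumour of libraries 20 and 24, and was -0.32 without that of libraries 19 and 23. Mad2l1, a checkpoint protein that binds Cdc20, had the greatest positive difference, 0.10 ± 0.12. For these 9 genes the limma adjusted p lay between 0.712 (Aurka) and 0.99 (Mki67).

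In the same comparison the markers of other cells gave no calls, but all 9 macrophage and all 8 endothelial markers had negative differences, with medians of -0.52 and -0.49. The macrophage sums ranged from 43572 to 114100 on 0.172% and from 85520 to 127780 on 0.86% in Balb/c tumours. Unadjusted p was under 0.05 for 5 of the macrophage and 6 of the endothelial markers. Their part in the values of the mitosis genes was not tested.

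In NSG hosts the differences between diets were about as often positive as negative. None of the 36 was called, where 0.00526% of all genes tested, 2 genes, were called, and the median difference was 0.01 with 17 negative (47.2%, against 50.3% of all genes tested and 43.6% of the 7445 genes) and 19 positive values. The groups overlapped in every member, against 0.218% of all genes tested with lower values and no overlap. Nek2 alone (2.78%) had an unadjusted p under 0.05, against 3.44% and 2.93% with a lower value. It had 2318, 2475 and 3044 normalised counts in NSG tumours on 0.172%, against 2677, 2998 and 3590 in NSG tumours on 0.86%, and 5 of the 6 restricted tumours lay below the median of the others (difference -0.24 ± 0.09, limma adjusted p = 0.633).

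The greatest positive differences in NSG hosts were those of Birc5, Hmmr and Ect2. Birc5, a chromosomal passenger protein and inhibitor of apoptosis, had 3058, 3983 and 4878 normalised counts on 0.172% and 2803, 3521 and 3946 on 0.86%, and differed by 0.18 ± 0.11 (limma adjusted p = 0.795). Hmmr had 3130, 3227 and 3545 on 0.172% and 2544, 2869 and 3258 on 0.86%, and differed by 0.18 ± 0.10. Ect2 had 3458, 4124 and 5717 on 0.172% and 3459, 3612 and 4835 on 0.86%, and differed by 0.18 ± 0.16. These groups overlapped in all 3 genes. Plk1 differed by 0.17 ± 0.09, with 2365, 2605 and 2809 on 0.172% and 1912, 2305 and 2628 on 0.86%. None of these 4 differences passed the test.

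The diet effect in Balb/c hosts minus that in NSG hosts was tested directly, and no member or other gene passed (0 of 38019 at an adjusted p of 0.05, and 2447 at an unadjusted p under 0.05). The median over the members was -0.17, against 0.00 over all genes tested, with 31 negative values (86.1%, against 50.1% of all genes tested and 51.7% of the 7445 genes). Unadjusted p was under 0.05 for 6 members (16.7%), all negative, against 3.19% and 4.49% with a negative value. Plk1 had the smallest p, with a diet difference lower by 0.39 in Balb/c than in NSG hosts (-0.39 ± 0.13, limma adjusted p = 0.609). Cdc20 followed at -0.37 ± 0.15 and Bub1b at -0.32 ± 0.13 (limma adjusted p = 0.687 and 0.692). Kif20a had the greatest positive value, 0.15 ± 0.24. Voom on the recovered counts moved the median of all genes in this contrast to 0.12, and that of the members to -0.15.

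**Figure D4:**
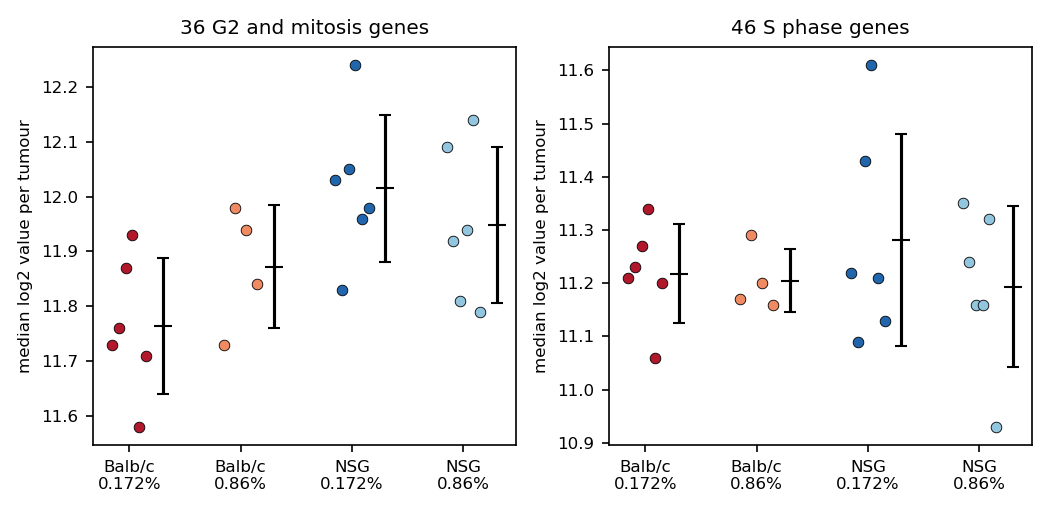
Median log2 value per tumour over the 36 G2 and mitosis genes (left) and over 46 S phase genes (right) in the 4 groups; each point is a tumour, and the bars give group mean and SD. For the mitosis genes the Balb/c tumours on 0.172% span 11.58 to 11.93 and the NSG tumours on 0.172% span 11.83 to 12.24.

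The median log2 value of the 36 genes in a tumour averaged 11.76 in Balb/c hosts on 0.172% (11.58 to 11.93), 11.87 in Balb/c hosts on 0.86% (11.73 to 11.98), 12.02 in NSG hosts on 0.172% (11.83 to 12.24) and 11.95 in NSG hosts on 0.86% (11.79 to 12.14). The ranges of all 4 groups overlap. The same summary over 46 genes of DNA replication averaged 11.22 in Balb/c hosts on 0.172%, 11.20 in Balb/c hosts on 0.86%, 11.28 in NSG hosts on 0.172% and 11.19 in NSG hosts on 0.86%. No S phase gene was called in any contrast, and their median difference between hosts on 0.172% was -0.04, with 31 of 46 negative and 2 at an unadjusted p under 0.05, all lower. In that comparison 46.6% of all genes tested and 60.1% of the 7445 genes were negative. A lower value at such a p was found in 6.5% and 13.8%. Tk1, a thymidine kinase, had the smallest p there, with a difference of -0.26 ± 0.10 (limma adjusted p = 0.23). In the other contrasts the S phase gene of smallest p was Mcm2 for diet in Balb/c hosts (0.25 ± 0.12), Ung for diet in NSG hosts (0.38 ± 0.12), Ccne2 for host on 0.86% (-0.42 ± 0.16) and Gins2 for diet by host (-0.33 ± 0.15).

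A further 108 genes of G2 and mitosis, in 5 lists, had a median difference of -0.13 between hosts on 0.172%, with 92 negative values and 1 called, lower. Of all genes tested 46.6% were negative and 0.652% called lower, and of the 7445 genes 60.1% and 1.17%. A single call among 108 genes is near those shares. The called gene was Cks2, a small subunit that binds Cdk1. It had 2304, 2422 and 2653 normalised counts in Balb/c tumours on 0.172%, against 2742, 3010 and 3566 in NSG tumours on 0.172%, without overlap (difference -0.32 ± 0.08, limma adjusted p = 0.036). On 0.86% its mean log2 value was 11.2 in Balb/c and 11.42 in NSG tumours, with overlap. Of the 5 lists the 36 spindle and cytokinesis genes had the lowest median, -0.22, with 35 negative and 19 at an unadjusted p under 0.05, all lower. A lower value at such a p was found in 6.5% of all genes tested and 13.8% of the 7445 genes. The gene of smallest p in the spindle and cytokinesis list was Gtse1, a microtubule-binding protein of G2 and S phase (-0.40 ± 0.11, limma adjusted p = 0.0529). The medians were -0.08 for 34 kinetochore and centromere genes, -0.15 for 11 condensin, cohesion and separation genes, -0.11 for 10 regulators of Cdk1 and -0.07 for 17 genes of the anaphase-promoting complex. The genes of smallest p in those without a call were Cenpp (-0.38 ± 0.11), Ncaph (-0.25 ± 0.09) and Anapc5 (-0.19 ± 0.07). In the diet comparisons and between hosts on 0.86% none of the 108 was called. Between hosts on 0.86% their median was -0.09, with 79 negative and 15 at an unadjusted limma p under 0.05. Of all genes tested 49.4% were negative and 12.4% had such a p, and of the 7445 genes 59.7% and 15.8%. The spindle and cytokinesis list had a median of -0.13 there, with 32 of 36 negative. Between diets the median of the 108 was -0.05 in Balb/c hosts, with 74 negative, and 0.0 in NSG hosts, with 52 negative.

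Of 15 transcriptional regulators of G2 and M genes, 1 was called on 0.172%, where 2.09% of all genes tested were called and 0.652% called lower. E2f5, a repressor E2F that joins the DREAM complex, had 470, 499 and 599 normalised counts in Balb/c tumours, against 629, 689 and 753 in NSG tumours, and fell by 0.40 on the log2 scale (SE 0.09, limma adjusted p = 0.0118). Foxm1, the forkhead activator of mitotic genes, had 8393, 8906 and 9972 in Balb/c tumours on 0.172% and 8675, 10670 and 12180 in NSG tumours on 0.172% (difference -0.23 ± 0.10, limma adjusted p = 0.28). Mybl2 had 1138, 1588 and 2347 in Balb/c tumours, against 1586, 1739 and 2097 in NSG tumours (difference -0.14 ± 0.13, limma adjusted p = 0.669). On 0.86% none of the 15 was called. The mean log2 values there were 13.2 in Balb/c and 13.39 in NSG tumours for Foxm1, 10.64 and 10.76 for Mybl2, and 9.27 and 9.36 for E2f5. Between diets Foxm1 differed by -0.06 ± 0.11 in Balb/c hosts and -0.03 ± 0.10 in NSG hosts, and Mybl2 by 0.04 ± 0.14 in Balb/c hosts and 0.06 ± 0.13 in NSG hosts.

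Among 11 cell cycle inhibitors and stress genes, Ccng1, a p53 target, fell on 0.172% to 2538, 3327 and 4120 normalised counts in Balb/c tumours, against 4430, 6033 and 7333 in NSG tumours, without overlap (difference -0.82 ± 0.13, limma adjusted p = 0.000384). Cdkn1a (p21), also a p53 target, had 5542, 6243 and 9236 in Balb/c tumours on 0.172% and 5380, 7502 and 9743 in NSG tumours on 0.172% (difference -0.16 ± 0.16, limma adjusted p = 0.719). On 0.86% Cdkn1a had 3496, 5279 and 7281 in Balb/c tumours, against 6877, 8012 and 8270 in NSG tumours. Its mean log2 values were 12.34 in Balb/c and 12.94 in NSG tumours on 0.86%, the groups overlapped, and the gene was not called. Between diets Cdkn1a differed by 0.33 ± 0.18 in Balb/c hosts and by -0.11 ± 0.16 in NSG hosts, and neither difference was called. In Balb/c hosts all 6 restricted tumours lay above the median of the others, but the groups overlapped, with 5542 to 9236 on 0.172% and 3496 to 7281 on 0.86%. Cdkn2a was near the detection limit, with at most 19.9 normalised counts in any tumour. It rose in Balb/c tumours on 0.86%, to between 12.1 and 19.9, against 1.82 to 8.34 in NSG tumours on 0.86%, a log2 difference of 0.61 ± 0.15 (limma adjusted p = 0.0223), and its difference on 0.172% was 0.46 ± 0.13 (limma adjusted p = 0.0757). Cdkn2a differed by -0.19 ± 0.15 between diets in Balb/c hosts and by -0.04 ± 0.13 in NSG hosts.

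The members varied together from tumour to tumour. After the group means were removed, 98.3% of the 630 pairs of members had a positive Pearson correlation across the 22 tumours, with a median of 0.53. It ranged from -0.25 for Bub3 with Hmmr to 0.92 for Aurka with Ube2c, and the first principal component held 52.1% of the variance. The median correlation of members with S phase genes was 0.48. These values are descriptions, since all genes of a tumour share its library, depth and cell mix.

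Some tumours were low or high for many members. Tumour 17, of the Balb/c hosts on 0.172%, was the lowest of its group for 27 of the 36 members, with a median deviation of -0.27 from the other 5. It also had the lowest sums of cytotoxic and NK markers and of T cell markers among the Balb/c tumours, 112 and 74.7 normalised counts. In NSG hosts tumour 4 was the highest of the 0.172% group for 24 members, and in the 0.86% group tumour 11 was highest for 22 and tumour 12 lowest for 21.

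The averaged tumour of libraries 19 and 23, of the Balb/c hosts on 0.86%, was mixed: it was lowest of its group for 23 members and highest for 7. Its deviation from the other 3 tumours ran from -1.11 in Ect2 to 0.35 in Cdc20 and went with transcript length. The Spearman correlation of the deviation with the longest annotated transcript was -0.5 over the 36 members and -0.67 over 7398 abundant genes, given as a description across genes of 1 tumour. Of the 18 members with a transcript longer than 3671 bases 16 were below the other tumours, and 12 of the 18 shorter ones. Cenpe, the motor that aligns chromosomes, deviated by -0.83, Mki67 by -0.91 and Cenpf by -0.49.

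**Figure D5:**
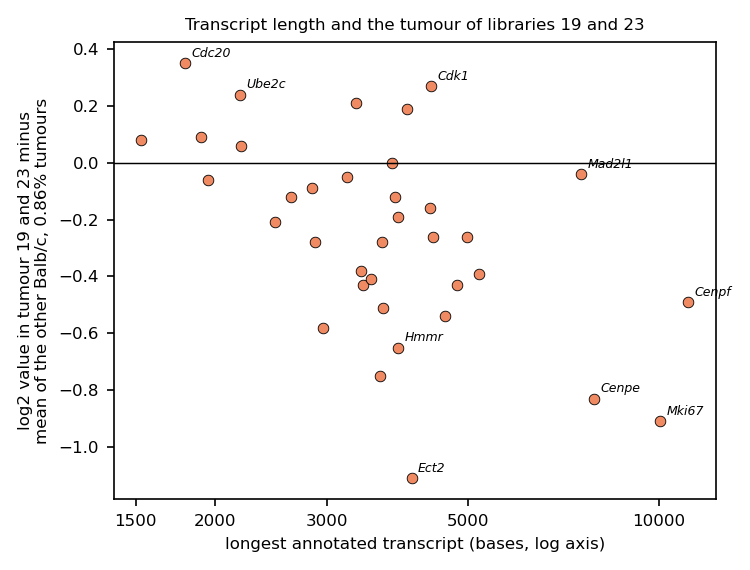
Deviation of the averaged tumour of libraries 19 and 23 from the mean of the other Balb/c tumours on 0.86% (log2, vertical) against the length of the longest annotated transcript in bases (log axis) for the 36 genes. Cdc20 lies at 0.35 and Ect2 at -1.11; long transcripts such as Mki67, Cenpe and Cenpf lie below 0.

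When the averaged tumour was left out the median difference of the members between diets in Balb/c hosts was -0.20, with 12 at an unadjusted p under 0.05, 1 positive and none called. Without tumour 17 it was -0.11, with 2 at an unadjusted p under 0.05 and 6 positive. With both left out it was -0.17, with 5 at an unadjusted p under 0.05. In the host comparison on 0.172% the median was -0.17 without tumour 17, with 11 members at an unadjusted p under 0.05, and also -0.17 without tumour 4, with 12.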

How the data were processed

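Gene expression was measured by RNA-seq in 24 libraries of CT26.WT tumours. STAR, featureCounts, DESeq2 and the mm10 build are listed in the submitters' processing notes, without versions or annotation. The authors deposited log2 values that have the form of a variance-stabilising transformation: their lowest value, 4.0711, marks genes with no read, and they reach 19.3186. For abundant genes the scale is close to log2. Inverted, all 640012 values above the lowest one were whole numbers (100%, tolerance 0.01), which gave depths and normalised counts (count over size factor). Left out were 26 of 55228 lines, which carry dates in place of gene names.

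Libraries 19 and 23, and 20 and 24, were near identical. Their chi-square per degree of freedom was at most 1.243, against at least 3.256 in the other 274 pairs, so both were averaged to a single value per gene, which leaves 22 tumours. That each pair stems from the same tumour is inferred from this likeness, and no label states it. The labels give both poly(A) selection and a stranded ribosomal depletion kit, so the use of strand is unknown. No label says that libraries stem from different mice. The p-values therefore reflect variation among these tumours, which may be partly technical.

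Each gene was fitted in limma 3.58.1 (R 4.3.3) with 4 group means and eBayes, using its trend and robust settings (statmod 1.5.0). Tests were two-sided, with Benjamini-Hochberg adjustment over 38019 genes that had a count in any library, and genes were called at 0.05. The fit was also run on simulated data, with planted changes larger than the differences of most members. That run does not show whether differences of the members' size would be found. Python 3.11.15 with matplotlib 3.10.9, numpy 2.4.6, pandas 2.3.3 and scipy 1.17.1 made tables and plots. Gene positions came from GENCODE M21 (53543 of 55202 names matched, all members among them) and promoters from RefSeq on GRCm38.p6.

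Members and gene lists were chosen with earlier results of these data known. Values are given for 12 genes representing the roles and, in each contrast, for called members, the 3 of smallest p and those of extreme difference. Other lists are given by their called genes or else the gene of smallest p on 0.172%, with Foxm1, Mybl2, Cdkn1a and Cdkn2a always, and cell type markers by counts and sums. The alternatives were separate use of all 24 libraries, the first library of each averaged pair, no filter, a filter asking for 5 or more on the log2 scale in 6 tumours, log2 of the normalised count plus 10, voom, median centring, quantile normalisation, eBayes without its options, library weights, a fit on the compared groups only, and omission of each tumour. Omission of tumours 17 and 19 and 23 together was added after the data were seen.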

Additional observations from a re-analysis of the deposited data

Results flagged for a closer look

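In 9 of 148 sets of tumours, 36 genes in 4 groups with 4 to 6 tumours each plus the list medians, the lowest or highest tumour stood apart by Dixon's criterion, which chance meets in about 1 of 20 sets. Tumour 17 stood low among the Balb/c tumours on 0.172% in Birc5 (11.29 on the deposited log2 scale), Kif2c (11.1) and Prc1 (11.96). The averaged tumour of libraries 19 and 23 stood apart among the Balb/c tumours on 0.86%, high in Cdk1 (12.94) and low in Cenpf (11.97) and Nusap1 (11.34). The averaged tumour of libraries 20 and 24 stood high in Nuf2 (11.68). Tumour 12 stood low among the NSG tumours on 0.86% in Bub3 (11.8) and Kif20a (11.95).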

How the results depend on the processing

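The number of members called between hosts on 0.172% was 2 and changed with several settings. It was 1 with all 24 libraries kept apart, with voom, with quantile normalisation and with plain eBayes, and 0 with no filter. With the stricter filter and with median centring it was 3 (Bub1b, Ccnb1 and Ect2). It was 4 with library weights and 0 to 4 when single tumours were left out. Bub1b had adjusted p from 0.0229 to 0.101 over the other settings and 0.0211 to 0.112 over single tumours left out, and Ect2 from 0.00247 to 0.145 and 0.00149 to 0.108. In the other 4 contrasts no member was called under any setting run. The median difference of the members moved by less than the SD of their median between tumours under every setting run. This is a wide yardstick: the SD was 0.12 for diet in Balb/c hosts and 0.13 for host on 0.172%, beside differences of -0.15 and -0.23. Those differences ranged from -0.20 to -0.11 and from -0.27 to -0.17. Among the 40 combinations of a named gene and a contrast, Mki67 changed sign, to 0.04 for diet in Balb/c hosts without tumour 20 and 24, and to 0.01 for host on 0.172% without tumour 1. The cause was not tested. Leaving out single tumours moved it between -0.32 and 0.04 for diet in Balb/c hosts and between -0.19 and 0.01 for host on 0.172%. Of the values of these 40 combinations under other settings, 1323 kept their direction and side of the threshold, 24 lost a call and 7 gained one. Over all 36 members other genes changed sign too: positive differences numbered 1 for host on 0.172% and 1 to 3 under other settings, and 2 for diet in Balb/c hosts and 1 to 6, with 6 without tumour 17 or tumour 21.

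Genes called for diet in Balb/c hosts numbered 1, but 112 with all 24 libraries and 126 without tumour 18, and those between hosts on 0.86% 963, but 1824 with all 24 libraries, 1673 with library weights, 526 without tumour 19 and 23, 620 without tumour 22 and 515 with no filter. Between hosts on 0.172% 796 genes were called, but 1394 with library weights, 1320 without tumours 17 and 19 and 23, 513 without tumour 4 and 385 with no filter. No paired analysis was possible because the library numbers 1 to 24 are not shared between groups. For diet in NSG hosts 2 genes were called, and 0 to 2 under other settings; for diet by host 0, and 0 to 3 under other settings. The 4 Balb/c tumours on 0.86% limit the comparisons that use them.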

Other observations

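Transcript length was also set against the deviation of other tumours. Over 7398 abundant genes the Spearman correlation of a tumour's deviation from its group with the longest transcript was 0.51 in tumour 1 and -0.31 in tumours 10 and 16. Over the 36 members it was 0.42 in tumour 1, but -0.67 in tumour 6 and -0.57 in tumour 9, where it was 0.04 and -0.10 over the abundant genes. Tumour 1 was highest of the NSG tumours on 0.172% in Cenpf and Mki67, which have the longest transcripts among the members. A tumour's deviation is taken from the others of its group, so values within a group are not independent. The other Balb/c tumours on 0.86%, with 0.35 to 0.43 over the abundant genes, are set against a group that holds tumour 19 and 23, and a positive value is partly built in there. These correlations run across genes of single tumours and are given as descriptions.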
